A study of Mus musculus with 6 samples.

Results

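Endothelial cells line every capillary, arteriole and venule of skeletal muscle, and 42 genes of these cells and of the signals that build vessels were followed in gastrocnemius muscle, a calf muscle, of mice with and without Nogo. The genes were a listed set, chosen with earlier results of these data known, and all 42 were found by symbol among the 12353 genes of the deposited table. By role they comprised 15 junction and surface proteins, 5 receptors and receptor partners for VEGF and angiopoietin, 6 transcription factors, 4 transport and caveolar proteins, 5 genes of vessel tone and endothelial signaling, 3 Notch pathway genes and 4 angiogenic ligands. RNA came from 3 wild-type (Nogo+/+) and 3 Nogo knock-out (Nogo-/-) mice, 1 library per mouse. The knock-out line was obtained from the laboratory of Binhai Zheng, and both genotypes were kept on an equal light and dark cycle. No treatment is given for either group. The strain, age, sex and hour of collection of the sequenced mice are not given in the sources used here, and no deletion limited to muscle fibers is described, so other cells, endothelium included, also lack Nogo in this model. The libraries are called Sample 1 to Sample 3 (Nogo+/+) and Sample 4 to Sample 6 (Nogo-/-).

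VEGF-A made by muscle fibers and other cells binds VEGFR2 (encoded by Kdr) on endothelium, while VEGFR1 (Flt1) binds the same ligand and acts largely as a decoy. Angiopoietin-1 acts through TIE2 (Tek), and Notch signaling started by the ligand DLL4 restrains sprouting. Endothelial cells are joined by VE-cadherin (Cdh5), PECAM-1 and claudin-5, are specified by ETS and SOX family transcription factors, and in muscle capillaries carry GPIHBP1, the anchor that holds lipoprotein lipase on the vessel wall.

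Levels are given as FPKM, fragment counts scaled to transcript length and library depth, and that depth was estimated at 13488000 to 14454000 fragments per library. Rtn4, the gene that encodes Nogo, had 414 to 429 FPKM in the Nogo+/+ libraries and 0.312 to 0.423 in the Nogo-/- libraries. Among the Nogo-/- libraries, Sample 6 stood apart in keratinocyte markers, whose 8 FPKM values summed to 227 there and to between 4.0 and 15.1 in the other 5 libraries. Sample 4 stood apart in fat cell markers, whose 6 values summed to 520 there, 277 in Sample 5, 207 in Sample 6 and 158 to 230 in the Nogo+/+ libraries. The part of either tissue in the results that follow was not tested, and the counts without each library are given beside them.

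The endothelial genes did not move as a block. In the Nogo-/- muscles 10 of the 42 fell and 3 rose, where 2.75% and 1.89% of all genes fell and rose (limma on log2(FPKM + 1) after quantile normalization, Benjamini-Hochberg adjusted p under 0.05), and the call in either direction was reached by 13 members, against 4.64% of all genes. Because the members were chosen with earlier results of these data known, these shares are set side by side and the excess was not tested. Cldn5 and Kdr, which fell furthest, stood at 44.9% and 51.7% of their Nogo+/+ mean FPKM. The genes that rose were Gpihbp1, at 161% of its Nogo+/+ mean, Aqp1, at 128%, and Ednrb, at 189%. The FPKM of the 3 mice of each genotype did not overlap for 17 members. Of these, 12 were lower in every Nogo-/- mouse, against 10.0% of all genes, and 5 were higher in every one, against 15.9% of all genes. The median log2 difference, Nogo-/- minus Nogo+/+, was −0.17 over the 42 members and −0.01 over all genes, and it was below 0 for 31 of the 42 members and for 6434 of the 12353 genes. In whole muscle, fewer endothelial cells and less RNA of a gene per cell cannot be told apart. Without Sample 6, 4 members passed as lower (Cldn5, Kdr, Ets1 and Cd93) and the 3 that rose still passed, in a fit that called 226 of the 12353 genes lower and 194 higher, beside 340 and 233 with all libraries. Without Sample 4, 8 members passed as lower and 3 as higher (233 and 145 of all genes). Without Sample 5 the counts were again 10 and 3, but Sox7, Sox18 and Egfl7 took the place of Cdh5, Tek and Adgrl4 (238 and 196 of all genes). Leaving out Sample 1 left 4 lower (Cldn5, Kdr, Ets1 and Emcn) and 4 higher, Sox17 among them (176 and 125 of all genes). Leaving out Sample 2 or Sample 3 left 3 lower (Cldn5, Kdr and Ets1) and 1 higher, Ednrb and Aqp1 respectively (105 and 83 of all genes without Sample 2, 108 and 84 without Sample 3).

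**Figure D1:**
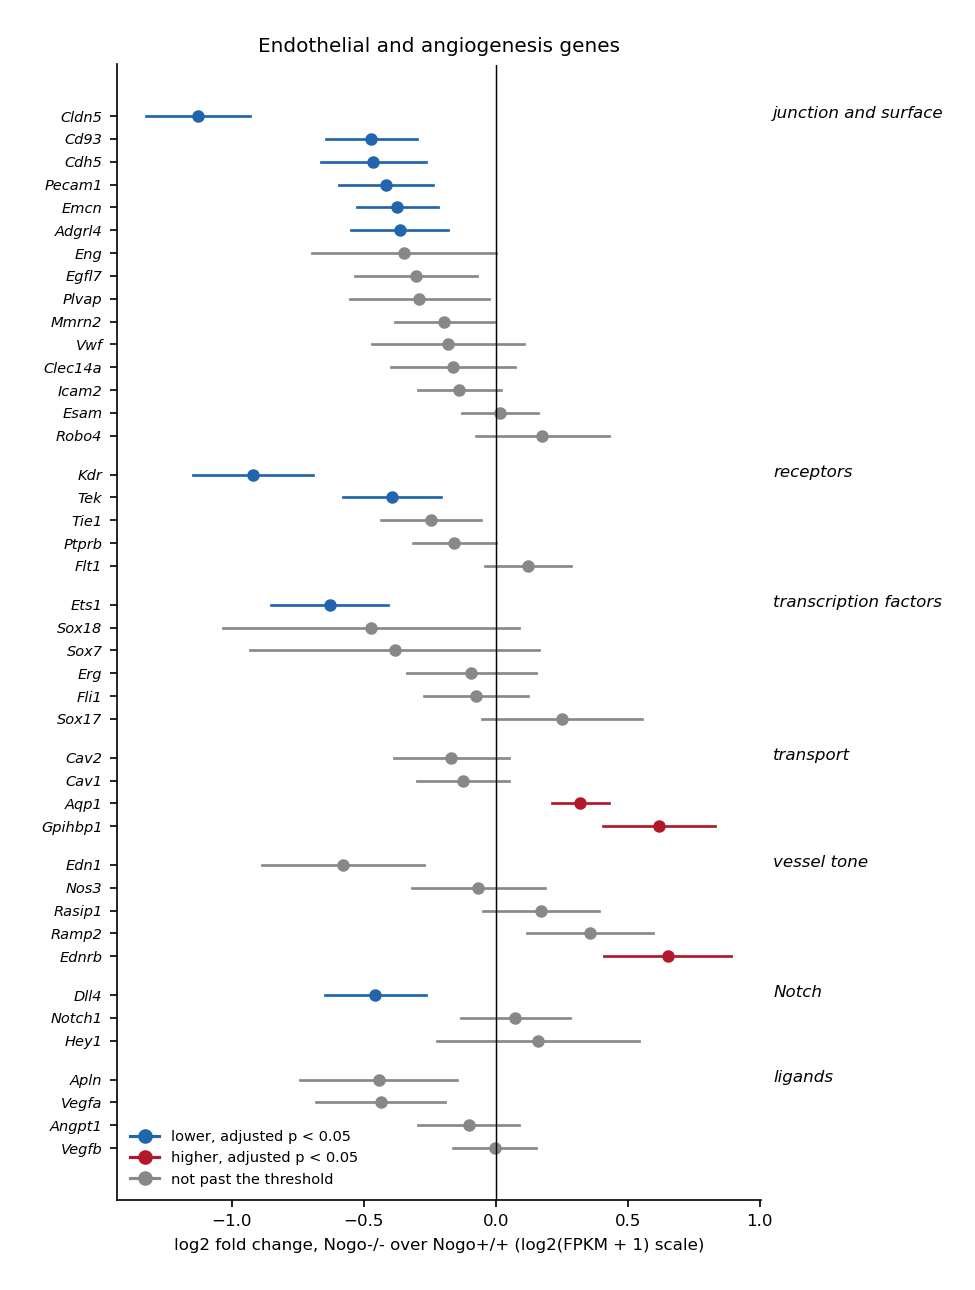
Each point is the log2 difference of 1 of the 42 genes, Nogo-/- over Nogo+/+, on the log2(FPKM + 1) scale, with its 95% limma interval as a line, grouped by role and ordered within each group. The 10 genes in blue fell and the 3 in red rose; most gray lines cross 0.

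The stretches of DNA before the start sites of the 2 members that fell furthest and of the 2 that rose and have a window are shown first, so that the letters that endothelial regulators are known to bind can be seen in place. RefSeq (GRCm38.p6) promoter windows were at hand for 23 of the 42 members, 29 windows in all because some genes have several starts. The 250 bases before each start are printed 5′ to 3′ in the direction of the gene. Capitals mark CCGGAA or AGGAAG, cores bound by ETS factors, and CACCC, a core bound by Kruppel-like factors, each on either strand.
Cldn5, chr16:18776597-18776846, plus strand: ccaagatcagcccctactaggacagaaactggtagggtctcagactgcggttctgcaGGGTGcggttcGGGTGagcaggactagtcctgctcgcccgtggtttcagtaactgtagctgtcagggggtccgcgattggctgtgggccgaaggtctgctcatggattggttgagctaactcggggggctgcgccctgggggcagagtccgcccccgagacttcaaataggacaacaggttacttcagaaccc
Kdr, chr5:75978456-75978705, minus strand: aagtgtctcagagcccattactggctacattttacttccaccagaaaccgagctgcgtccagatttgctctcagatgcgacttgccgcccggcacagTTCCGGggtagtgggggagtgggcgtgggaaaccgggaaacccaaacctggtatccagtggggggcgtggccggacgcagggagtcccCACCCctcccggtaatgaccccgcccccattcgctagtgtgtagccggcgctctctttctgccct
Aqp1, chr6:55336049-55336298, plus strand: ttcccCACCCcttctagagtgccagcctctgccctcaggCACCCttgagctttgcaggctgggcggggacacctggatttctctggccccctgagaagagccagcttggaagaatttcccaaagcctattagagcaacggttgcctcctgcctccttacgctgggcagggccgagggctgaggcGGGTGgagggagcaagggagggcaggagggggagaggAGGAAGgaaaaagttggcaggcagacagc
Ednrb, chr14:103843702-103843951, minus strand: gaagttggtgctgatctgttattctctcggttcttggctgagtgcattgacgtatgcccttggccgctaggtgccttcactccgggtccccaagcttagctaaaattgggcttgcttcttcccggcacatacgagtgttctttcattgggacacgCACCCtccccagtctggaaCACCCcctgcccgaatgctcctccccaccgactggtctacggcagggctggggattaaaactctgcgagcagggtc
The Cldn5 window held 2 CACCC matches and no ETS match, and the Ednrb window likewise held 2 and none. The Kdr window held 1 of each, and the Aqp1 window held 3 CACCC matches and 1 ETS match. Over the 29 member windows, 13 (44.8%) held an ETS core, beside 38.2% of the 32851 windows in the RefSeq table, and 20 (69.0%) held CACCC, beside 52.0%. The SOX core ACAAT was in 6 member windows (20.7% beside 27.7% of all), the hypoxia core ACGTG in 4 (13.8% beside 16.6%), and CACGTG, the E-box, in none (6.0% of all); the E-box contains the hypoxia core. Among the 6 windows of members that fell, 3 held an ETS core and 5 held CACCC. These letters describe the windows only; binding was not measured.

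Among junction and surface proteins, 6 of 15 fell and none rose. Cldn5 encodes claudin-5, which seals the tight junctions between endothelial cells (chr16:18776847-18778262 on GRCm38, a gene with 1 annotated transcript). Its FPKM was 22.0, 20.0 and 20.6 in the Nogo+/+ mice (20.9 ± 1.03, SD, n = 3) and 10.6, 9.61 and 7.94 in the Nogo-/- mice (9.37 ± 1.33). The Nogo-/- mice were all far below the Nogo+/+ mice, which lay close together. About 381 to 431 fragments lay behind each Nogo+/+ value and 155 to 208 behind each Nogo-/- value. The log2 difference was −1.13 ± 0.09 (SE; limma adjusted p = 3.08e-04), and it passed in all 6 fits that left out 1 library.

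The other 5 that fell did so by less. VE-cadherin (Cdh5), the adhesion molecule of endothelial adherens junctions, had 34.4, 29.0 and 29.4 FPKM in Nogo+/+ and 25.8, 21.4 and 22.0 in Nogo-/- muscle (log2 difference −0.46 ± 0.09 SE, limma adjusted p = 0.0233). Pecam1, a homophilic adhesion molecule of endothelium and platelets, had 35.5, 31.2 and 30.7 against 26.7, 26.2 and 22.2 (−0.42 ± 0.08, adjusted p = 0.0237). For both genes the Nogo-/- mice were all lower, and Sample 1 was the highest library. Cd93, a surface lectin-like receptor of endothelium, had 11.1, 10.5 and 10.8 FPKM against 8.80, 7.30 and 7.24 (−0.47 ± 0.08, adjusted p = 0.0122). Endomucin (Emcn), a sialomucin of capillaries and veins, had 13.1, 13.5 and 14.9 against 10.7, 11.2 and 10.3 (−0.37 ± 0.07, adjusted p = 0.0199). Adgrl4, an adhesion G protein-coupled receptor of endothelium, had 8.85, 8.07 and 8.57 against 7.26, 6.94 and 5.61 (−0.36 ± 0.08, adjusted p = 0.0420). These 5 genes lay at 71.8% to 77.8% of the Nogo+/+ mean. None of them held the call in every fit without 1 library: Cd93 passed in 3 of 6, Emcn and Pecam1 in 2, Cdh5 in 1 (without Sample 4) and Adgrl4 in none, with adjusted p between 0.0560 and 0.140.

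The remaining 9 surface genes did not pass, and the groups overlapped for each. Esam, an immunoglobulin-like tight junction molecule of endothelium, was closest to level, with 28.0, 24.5 and 25.2 FPKM in Nogo+/+ and 29.0, 26.5 and 26.0 in Nogo-/- muscle (log2 difference 0.02, 95% interval −0.13 to 0.16). Egfl7, a protein secreted by endothelium and the most abundant of this group by FPKM, had 105, 92.2 and 103 against 84.7, 96.6 and 70.1 (−0.30 ± 0.10, limma adjusted p = 0.148). Only Sample 5 reached into the Nogo+/+ range of Egfl7, and without that library the gene passed (−0.41, adjusted p = 0.0406). Egfl7 passed in none of the other fits that left out 1 library. Eng, the TGF-beta co-receptor endoglin, spanned 21.4 to 30.2 FPKM in Nogo+/+ and 15.4 to 22.4 in Nogo-/- muscle (−0.35 ± 0.15). Plvap, which forms the diaphragms of endothelial fenestrae and caveolae, spanned 12.0 to 16.0 against 9.64 to 12.1 (−0.29 ± 0.11), and Mmrn2, a matrix glycoprotein that binds CD93, 6.57 to 7.52 against 5.40 to 6.86 (−0.20 ± 0.08). Von Willebrand factor (Vwf), stored in endothelial granules, had 16.5 FPKM in Sample 1 and 11.1 to 13.2 in the other 5 libraries (−0.18, 95% interval −0.47 to 0.11). Clec14a had 1.59 to 1.96 FPKM against 1.35 to 1.8 (−0.16), and Icam2, an adhesion ligand for leukocyte integrins, 8.09 to 9.26 against 7.70 to 8.48 (−0.14). Robo4, a guidance receptor of endothelium, was the other gene of this group with a mean above Nogo+/+, at 8.05 to 10.0 against 9.30 to 12.0 FPKM (0.18, 95% interval −0.08 to 0.43).

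Among the receptors, Kdr and Tek fell, while Flt1 lay slightly above its Nogo+/+ level. Kdr (chr5:75932827-75978458) had 14.9, 14.2 and 15.2 FPKM in Nogo+/+ and 8.90, 7.86 and 6.13 in Nogo-/- muscle (14.8 ± 0.516 against 7.63 ± 1.4, SD, n = 3 each). The Nogo+/+ mice sat close together and all 3 Nogo-/- mice were far beneath them (log2 difference −0.92 ± 0.10 SE, limma adjusted p = 0.00192, passing in all 6 fits without 1 library). Flt1 (chr5:147561604-147726011), which binds the same ligand, had 11.0, 9.93 and 9.76 FPKM against 11.1, 12.5 and 11.0 (0.12 ± 0.07, 95% interval −0.04 to 0.29, adjusted p = 0.388). All Nogo-/- mice were above all Nogo+/+ mice for Flt1, but by a margin far under the spread within either group. The ratio of Kdr to Flt1 FPKM was therefore 1.36, 1.43 and 1.56 in the Nogo+/+ libraries and 0.802, 0.631 and 0.557 in the Nogo-/- libraries, above 1 in every Nogo+/+ mouse and below 1 in every Nogo-/- mouse.

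Tek, the angiopoietin receptor TIE2, had 7.72, 7.84 and 7.28 FPKM in Nogo+/+ and 6.41, 6.02 and 4.90 in Nogo-/- muscle (−0.39 ± 0.08, limma adjusted p = 0.0342). The groups did not overlap, and of the 6 fits without 1 library the call held in 1, the fit without Sample 4. Tie1, the related orphan receptor, had 16.8, 14.8 and 15.4 against 15.3, 13.4 and 11.9 FPKM (−0.25 ± 0.08, adjusted p = 0.151). The vascular endothelial phosphatase Ptprb, which removes phosphate from TIE2, had 9.43, 8.54 and 8.55 against 8.57, 8.33 and 7.36 (−0.16 ± 0.07, adjusted p = 0.247). For Tie1 and Ptprb, Sample 4 lay within the Nogo+/+ range.

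**Figure D2:**
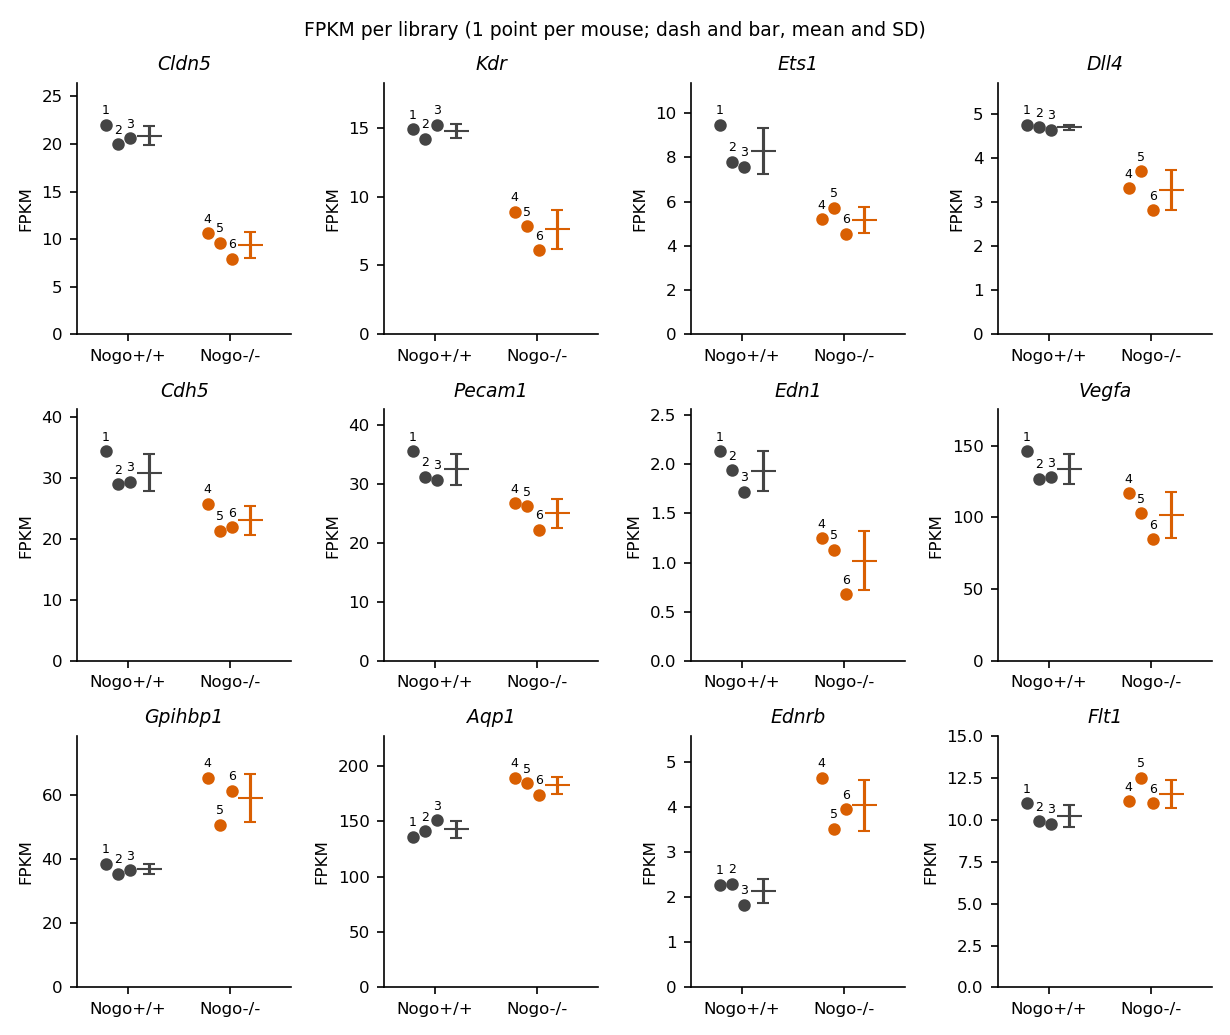
FPKM of 12 members in each of the 6 libraries, numbered 1 to 6 by sample, with the group mean and SD as a dash and bar; axes start at 0. Cldn5, Kdr, Ets1, Dll4, Cdh5, Pecam1, Edn1 and Vegfa are lower in every Nogo-/- mouse, Gpihbp1, Aqp1 and Ednrb are higher in every one, and the Flt1 groups nearly touch.

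Of the 6 transcription factors, 1 fell. Ets1, an ETS factor of endothelium and lymphocytes, had 9.46, 7.80 and 7.57 FPKM in Nogo+/+ and 5.20, 5.73 and 4.54 in Nogo-/- muscle (8.28 ± 1.03 against 5.15 ± 0.597, SD, n = 3 each). The highest Nogo-/- mouse was below the lowest Nogo+/+ mouse, and the log2 difference of −0.63 ± 0.10 (SE; limma adjusted p = 0.0105) passed in all 6 fits without 1 library. Fli1, an ETS factor whose gene lies 93.4 kb from Ets1 on chromosome 9, had 2.75, 2.36 and 2.57 FPKM against 2.71, 2.29 and 2.40 (−0.08, 95% interval −0.27 to 0.12). Erg, the other ETS factor of the set, had 4.50, 4.54 and 3.77 against 4.93, 3.76 and 3.53 (−0.09, 95% interval −0.34 to 0.15). Neither Fli1 nor Erg separated the genotypes.

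Sox7 and Sox18, SOX factors of endothelium, varied widely among the Nogo-/- mice. Sox18 had 17.8, 14.3 and 14.1 FPKM in Nogo+/+ muscle, and 9.20, 18.3 and 8.02 in Sample 4, Sample 5 and Sample 6. Sox7 had 5.16, 3.88 and 4.11 in Nogo+/+ muscle and 2.49, 5.55 and 2.26 in the same order. Sample 5 was thus the highest of all 6 libraries for both genes, and the other Nogo-/- mice were below every Nogo+/+ mouse. With all libraries the log2 differences were −0.47 ± 0.24 and −0.38 ± 0.24 (limma adjusted p = 0.327 and 0.421), and without Sample 5 they were −0.80 and −0.70 (adjusted p = 0.0105 and 0.0220). Neither gene passed in the other fits that left out 1 library. Estimated fragments for Sox18 were 207, 429 and 179 in the Nogo-/- libraries. Sox17, the other SOX gene, did not follow them. It had 9.63, 6.38 and 6.43 FPKM against 9.47, 9.54 and 8.72 (0.25 ± 0.13), with Sample 1 as the library outside the pattern, and without Sample 1 it passed as higher (0.42, adjusted p = 0.0294). Sox17 did not pass when any other single library was left out.

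**Figure D3:**
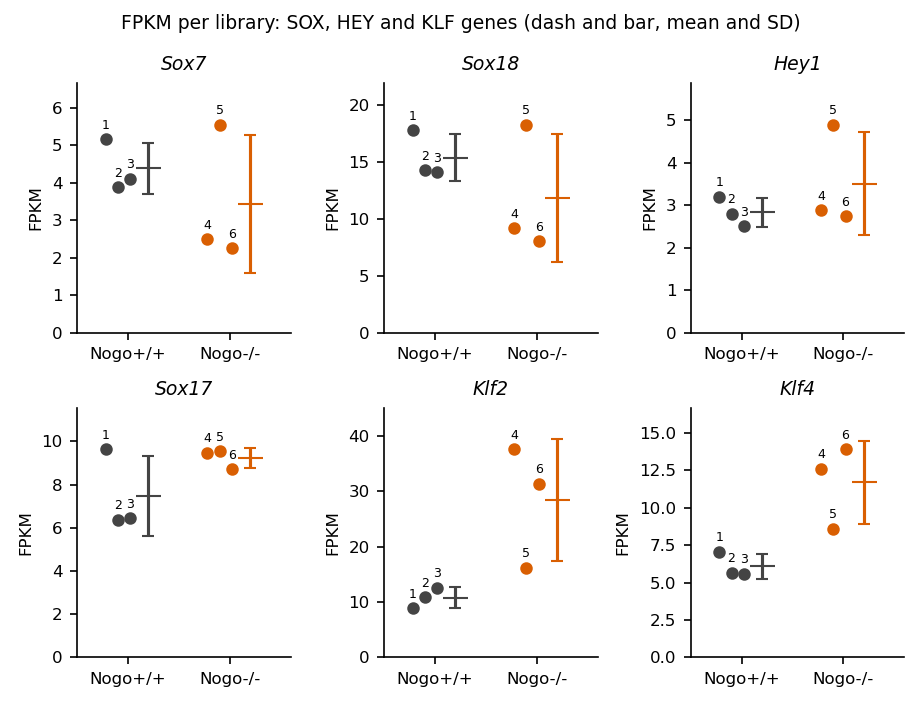
FPKM per library of Sox7, Sox18, Hey1 and Sox17, and of the flow-responsive factors Klf2 and Klf4, numbered by sample, with group mean and SD; axes start at 0. Sample 5 is the highest of the 6 libraries for Sox7, Sox18 and Hey1 and the lowest Nogo-/- library for Klf2 and Klf4.

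Both genes of the transport group that changed rose. Gpihbp1 (chr15:75596628-75599481), the capillary anchor of lipoprotein lipase, had 38.7, 35.5 and 36.7 FPKM in Nogo+/+ and 65.5, 50.9 and 61.5 in Nogo-/- muscle (37.0 ± 1.6 against 59.3 ± 7.54, SD, n = 3 each). All Nogo-/- mice were above all Nogo+/+ mice, and the log2 difference was 0.62 ± 0.09 (SE; limma adjusted p = 0.00942). It passed without Sample 1, 4, 5 or 6 and not without Sample 2 or Sample 3 (adjusted p = 0.0598 and 0.0531). The fat cell markers were highest in Sample 4, which was also the highest library for Gpihbp1, and without that library the log2 difference was 0.54 (adjusted p = 0.0253). That fit does not remove the fat signal, because the fat cell markers Cidec, Plin1 and Lep were above every Nogo+/+ mouse in Sample 5 and Sample 6 too. The part of fat in the Gpihbp1 result was not tested. Aqp1 (chr6:55336432-55348555), the water channel of capillaries and red blood cells, had 136, 141 and 151 FPKM against 189, 184 and 174 (0.32 ± 0.05, adjusted p = 0.00912), again with no overlap. The call was lost without Sample 2 alone (adjusted p = 0.0536). The red blood cell markers, 5 of 6 listed genes measured, summed to 188 to 316 FPKM in Nogo+/+ and 217 to 233 in Nogo-/- muscle; their part in the Aqp1 result was not tested.

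Caveolins shape the flask-like membrane pits that are dense in capillary endothelium and are also present in fat and muscle cells. Cav1 had 97.7, 89.9 and 87.8 FPKM against 97.3, 86.2 and 77.7 (−0.12, 95% interval −0.30 to 0.05), and Cav2, whose gene lies 17.2 kb from Cav1 on chromosome 6, had 14.4, 14.3 and 14.6 against 15.8, 12.2 and 11.9 (−0.17, 95% interval −0.39 to 0.05). The genotypes overlapped for both.

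In the endothelin system the receptor and the ligand lay on opposite sides of their Nogo+/+ levels. Ednrb (chr14:103814625-103844402), the endothelin B receptor, had 2.28, 2.30 and 1.84 FPKM in Nogo+/+ and 4.65, 3.52 and 3.95 in Nogo-/- muscle (2.14 ± 0.259 against 4.04 ± 0.574, SD, n = 3 each). It rose by 0.65 ± 0.10 on the log2(FPKM + 1) scale, which understates a change at this low level (limma adjusted p = 0.0127), and the call was lost without Sample 3 alone (adjusted p = 0.0584). Edn1, the vasoconstrictor endothelin-1, had 2.13, 1.94 and 1.72 FPKM against 1.25, 1.13 and 0.678. Every Nogo-/- mouse was lower, but the difference of −0.58 ± 0.13 missed the threshold (adjusted p = 0.0502), and it rested on an estimated 53 to 63 fragments per Nogo+/+ library and 20 to 37 per Nogo-/- library. The ratio of Ednrb to Edn1 FPKM was therefore 1.07, 1.19 and 1.07 in the Nogo+/+ mice and 3.74, 3.11 and 5.83 in the Nogo-/- mice.

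Ramp2, the partner that makes the calcitonin receptor-like receptor respond to adrenomedullin, had 32.3, 24.8 and 28.8 FPKM against 42.9, 34.6 and 37.5, higher in every Nogo-/- mouse without passing (0.36 ± 0.10, limma adjusted p = 0.102). Rasip1, a Rap1 effector needed for vessel lumens, had 9.08, 7.04 and 6.87 against 9.10, 9.05 and 8.79 (0.17, 95% interval −0.05 to 0.39). Nos3, the endothelial nitric oxide synthase, had 6.66, 5.57 and 6.20 against 7.04, 6.38 and 4.78 (−0.07, 95% interval −0.32 to 0.19). Sample 4 was the highest and Sample 6 the lowest of all 6 libraries for Nos3.

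Within the Notch pathway the ligand fell and the receptor and target did not pass. Dll4, the Notch ligand of arterial and sprouting endothelium, had 4.75, 4.70 and 4.64 FPKM in Nogo+/+ and 3.31, 3.70 and 2.81 in Nogo-/- muscle. The Nogo+/+ values were nearly equal and all Nogo-/- values were below them (−0.45 ± 0.08, limma adjusted p = 0.0226), although of the fits without 1 library only that without Sample 5 held the call. Notch1, the receptor, had 2.89, 2.33 and 2.39 FPKM against 2.77, 2.98 and 2.68 (0.08, 95% interval −0.13 to 0.28). Hey1, a transcription factor switched on by Notch, had 3.20, 2.80 and 2.51 against 2.89, 4.90 and 2.74 (0.16, 95% interval −0.22 to 0.54). As for Sox7 and Sox18, Sample 5 was the highest library for Hey1.

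None of the 4 ligands passed. Vegfa, the main growth factor for endothelium, had 146, 127 and 128 FPKM in Nogo+/+ and 117, 103 and 84.7 in Nogo-/- muscle, lower in every Nogo-/- mouse (−0.44 ± 0.11, limma adjusted p = 0.0603). Of the 6 fits without 1 library, Vegfa passed in 1, that without Sample 4 (−0.55, limma adjusted p = 0.0258). In the others the adjusted p went up to 0.171. Vegfb, a ligand of VEGFR1 and not of VEGFR2, had 95.2, 77.0 and 87.1 against 86.2, 89.2 and 88.2 FPKM (−0.003, 95% interval −0.16 to 0.15). The ratio of Vegfa to Vegfb was 1.54, 1.65 and 1.47 in the Nogo+/+ mice and 1.35, 1.15 and 0.960 in the Nogo-/- mice, without overlap. With Vegfb nearly level, this ratio mostly restates Vegfa, which did not pass, and is not separate support. Apln, which encodes the peptide apelin, had 2.67, 2.49 and 2.11 FPKM against 2.15, 1.47 and 1.22 (−0.44 ± 0.13, adjusted p = 0.102), with Sample 4 just inside the Nogo+/+ range. Angpt1, the TIE2 ligand angiopoietin-1, had 3.50, 3.08 and 3.61 against 3.06, 3.30 and 3.27 (−0.10, 95% interval −0.30 to 0.09).

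The size of the fall thus differed between genes listed for the same cell type, and ratios of chosen pairs describe this within each library. Cldn5 per Cdh5 FPKM was 0.639, 0.687 and 0.702 in the Nogo+/+ mice and 0.410, 0.450 and 0.361 in the Nogo-/- mice, and Gpihbp1 per Cdh5 was 1.12, 1.22 and 1.25 against 2.54, 2.39 and 2.80. Neither ratio overlapped between genotypes. For Gpihbp1 per Cdh5 this follows from the single genes, whose groups already lay apart in opposite directions, and adds nothing to them. Cldn5 was the member that fell furthest, so its lower ratio to Cdh5 largely restates that choice of gene and is not separate support. Each library was instead shifted so that the median log2 level of the 15 surface members, Cldn5 among them, was equal. Cldn5 (−0.85 ± 0.17 SE) and Kdr (−0.64 ± 0.17) still passed as lower, and the other 8 members that had fallen did not pass. The shift puts the same library error into every gene, so the calls of this fit are not separate support. For Cldn5 the limma adjusted p went from 3.08e-04 to 2.56e-05, although its difference shrank and its standard error grew from 0.09. On this scale Gpihbp1 (0.89), Ednrb (0.93), Aqp1 (0.60), Ramp2 (0.63) and Sox17 (0.53) passed as higher. That scale moves the median of all genes to 0.27 and calls 0.364% of all genes lower and 8.39% higher, so its counts are read against the endothelial level only. A ratio shows that genes changed unequally, not which of them changed per cell, and cell number and RNA per cell cannot be told apart here.

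**Figure D4:**
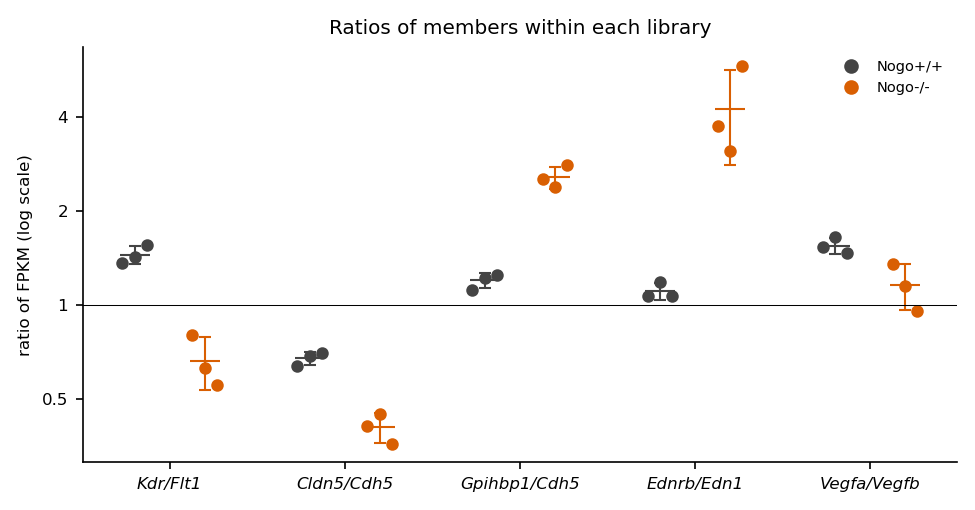
Ratios of FPKM between 2 members within each library on a log axis, black for Nogo+/+ and orange for Nogo-/- mice, with group mean and SD. The Kdr to Flt1 and Cldn5 to Cdh5 ratios are lower, and the Gpihbp1 to Cdh5 and Ednrb to Edn1 ratios higher, in every Nogo-/- mouse than in any Nogo+/+ mouse. Except for Cldn5 to Cdh5, this follows from the single genes, whose groups lie apart in opposite directions. Cldn5 is the member that fell furthest, so its ratio is not separate support. The Vegfa to Vegfb ratio follows Vegfa, with Vegfb nearly level.

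Within a genotype the members moved partly together. By FPKM, Sample 1 was the highest Nogo+/+ library for 33 of the 42 members, against 39% of all genes. Among the Nogo-/- libraries, Sample 4 was the highest for 29 members (41.7% of all genes) and Sample 6 the lowest for 33 (47.1% of all genes) and the highest for none. On the normalized level used for the tests, Sample 1 was the highest for 32 members (35.8% of all genes), Sample 4 for 28 (33.6%), and Sample 6 was the lowest for 24 (35.0%) and the highest for 3. Over the 42 members, the mean normalized log2 level was 3.82, 3.67 and 3.67 in the Nogo+/+ libraries and 3.60, 3.58 and 3.44 in the Nogo-/- libraries. Sample 6, with the lowest of these, is the library with the keratinocyte markers. The widest spread among the Nogo-/- mice was that of Sox7 (highest over lowest 2.45), Sox18 (2.29), Edn1 (1.84), Hey1 (1.79) and Apln (1.76).

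Of 102 other genes listed for vessel biology, 88 were measured, and of these 7 fell and 4 rose, where 2.75% and 1.89% of all genes did so; the counts for each list that follows are read against the same shares. Among 16 other VEGF, angiopoietin and apelin genes, the apelin receptor Aplnr fell from 12.3, 10.4 and 10.5 FPKM to 5.86, 6.36 and 3.41 (−1.03 ± 0.16, limma adjusted p = 0.0122), beside −0.44 for its ligand Apln. Vegfd, a lymphatic growth factor, rose from 1.06, 1.23 and 0.755 to 2.15, 2.36 and 1.88 (0.60 ± 0.12, adjusted p = 0.0303), and Ackr3, a chemokine and adrenomedullin scavenger, rose from 6.87, 7.96 and 7.23 to 14.5, 9.62 and 11.4 (0.57 ± 0.13, adjusted p = 0.0470). In the Notch, ephrin and arteriovenous list, 4 of 15 measured genes fell and none rose. Heyl, a Notch target of vascular smooth muscle, fell from 5.27, 4.79 and 4.90 FPKM to 3.52, 3.42 and 3.13 (−0.49 ± 0.07, adjusted p = 0.00657) and passed in all 6 fits without 1 library. The Notch target Nrarp (−0.53, adjusted p = 0.0173), the arterial ligand Efnb2 (−0.43, adjusted p = 0.0213) and the netrin receptor Unc5b (−0.49, adjusted p = 0.0356) also fell. Of the 6 fits without 1 library, the call held in 3 for Aplnr, in 2 for Nrarp, in 1 each for Vegfd, Ackr3 and Efnb2, and in none for Unc5b (adjusted p between 0.0531 and 0.109).

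The flow-responsive list, 14 genes measured, held 2 that rose and none that fell. Klf2, a factor induced by laminar shear that is also made by other cells, had 8.86, 10.9 and 12.6 FPKM in Nogo+/+ and 37.6, 16.2 and 31.4 in Nogo-/- muscle (1.21 ± 0.27, limma adjusted p = 0.0448), and Klf4 had 7.07, 5.67 and 5.58 against 12.6, 8.59 and 13.9 (0.78 ± 0.16, adjusted p = 0.0378). In both, Sample 5 was the lowest Nogo-/- mouse, the same library that was highest for Sox7, Sox18 and Hey1; each of the 2 held the call in 1 of the 6 fits without 1 library. Among 25 other endothelial markers and factors, Elk3, an ETS factor (−0.56, adjusted p = 0.0122), and Mecom, a zinc finger factor of arterial endothelium (−0.48, adjusted p = 0.0243), fell and none rose; their calls held in 3 and 1 of the 6 fits without 1 library. The other 23 did not pass; over the 25, the groups did not overlap for 7 that were lower and 1 that was higher in Nogo-/- muscle, and the median log2 difference was −0.12. In the adhesion list, none of 5 measured genes passed; the smallest p values were those of Selp (−0.45, adjusted p = 0.105) and Lrg1 (0.22, adjusted p = 0.120). None of 10 oxygen-sensing genes passed, with Egln3 (−0.28, adjusted p = 0.132) and Egln1 (−0.13, adjusted p = 0.168) nearest, and none of 4 lymphatic markers, with Lyve1 (0.57, adjusted p = 0.0857) and Pdpn (0.19, adjusted p = 0.345) nearest. Over the 7 lists the median log2 difference was −0.09.

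Markers of other cells were set beside these results. Among 12 genes listed as mural markers (smooth muscle and pericytes, the cells that wrap vessels), 2 fell, beside 2.75% of all genes, and the other 10 did not pass. Those that fell were Acta2 (65.0, 63.5 and 66.1 against 47.6, 52.7 and 36.7 FPKM, limma adjusted p = 0.0265) and Pdgfrb (12.6, 11.4 and 11.7 against 9.85, 10.6 and 8.57, adjusted p = 0.0479). The log2 difference was below 0 for 11 of the 12, with a median of −0.28, beside −0.30 for the 15 surface genes. The exception was Des, at 832 to 865 FPKM in all libraries. The paper describes its product desmin as a muscle-specific filament, so Des does not mark vessel cells alone. Acta2, Pdgfrb, Tagln, Myh11, Notch3 and Kcnj8 were lower in every Nogo-/- mouse, 6 of the 12, beside 10.0% of all genes. The groups overlapped for the other 6, beside 9157 of the 12353 genes. Among these 6, the log2 difference was −0.63 for Cnn1, −0.155 for Rgs5, −0.11 for Higd1b, −0.07 for Abcc9, −0.02 for Cspg4 and 0.09 for Des. Cnn1 had 1.74 to 3.82 FPKM in Nogo+/+ and 1.04 to 1.94 in Nogo-/- muscle. Cspg4, a pericyte proteoglycan, had 5.28 to 6.48 against 5.21 to 6.15. The part of mural cells in the endothelial result was not tested. None of 8 muscle fiber, 8 fibroblast, 8 leukocyte or 6 Schwann cell markers passed, and the muscle fiber markers summed to 25985 to 28207 FPKM over all libraries. All 6 fat cell markers had a higher mean in Nogo-/- muscle, without any passing (median log2 difference 0.64). The groups overlapped for 3, among them Adipoq at 12.7, 20.9 and 20.1 against 46.8, 27.8 and 17.2 FPKM. The other 3, Cidec, Plin1 and Lep, were higher in every Nogo-/- mouse, beside 15.9% of all genes. Cidec had 5.83, 8.95 and 9.38 against 31.7, 18.6 and 13.1 FPKM. The 8 keratinocyte markers were high in Sample 6 alone, where Krt5 reached 42.0 FPKM, beside 0 to 2.56 in the other 5 libraries.

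**Figure D5:**
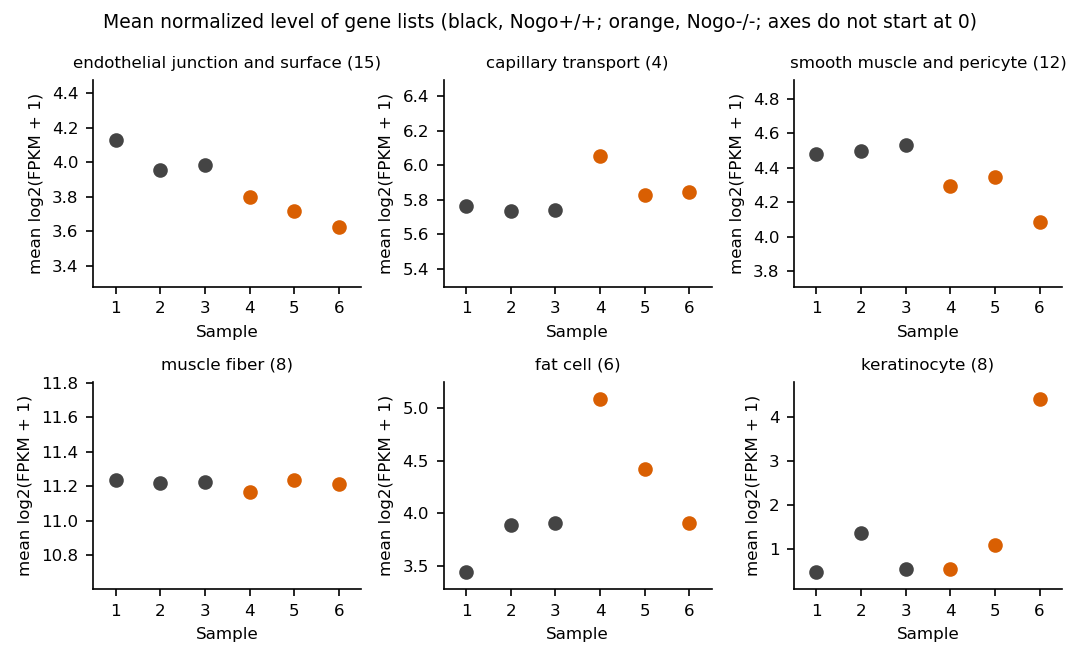
Mean normalized log2(FPKM + 1) of 6 gene lists in each library, black for Nogo+/+ and orange for Nogo-/- mice; each panel has its own axis, which does not start at 0. The surface and mural lists are lower in every Nogo-/- library, the muscle fiber list is nearly level, the fat cell list peaks in Sample 4 and the keratinocyte list in Sample 6.

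A total of 4 members may share reads with a neighbor. Exons of Ramp2 overlap Vps25 on the same strand, and exons of Eng, Egfl7 and Rasip1 overlap Fpgs, Agpat2 and A030001D20Rik on the other strand; the libraries kept strand, but whether the counting used it is not given in the sources used here. Agpat2, a lipid synthesis gene, had 6.04 FPKM in Sample 1 and 15.1 in Sample 4. These are the libraries with the lowest and highest sums of fat cell markers (158 and 520), so the 2 values do not compare the genotypes. None of these 4 members passed with all libraries.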

How the data were processed

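Gastrocnemius mRNA of 3 Nogo+/+ and 3 Nogo-/- mice was sequenced by the authors from stranded libraries. The submitters' processing notes name CASAVA 1.8.2, cutadapt 1.4.2, STAR 2.6.1, Cufflinks 2.2.1 and GRCm38.p6. The deposited values are FPKM, which the authors list where a gene reached 1 FPKM in any library. A further 6 per-sample columns, normalized log2 values of the authors, were not used. Columns were assigned to genotypes by the heading of the study's own gene table, not to replicate numbers. Symbols and coordinates came from GENCODE M21 for 12342 of 12353 genes.

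FPKM were quantile normalized over all genes and tested as log2(FPKM + 1) with limma 3.58.1 in R 4.3.3 (eBayes with trend; genotype as the only term), p-values were adjusted by Benjamini-Hochberg across 12353 genes, and 0.05 was the threshold. Fold changes are on that scale and understate changes of low genes. An exact permutation test of 3 against 3 cannot go below 0.1 and was not used. Depth was estimated from genes with 1 transcript, whose FPKM step in whole fragments. Candidate depths were scanned for the largest share of values within 0.1 of a whole number. That share was 94.7% to 95.9%, beside 20% by chance at a depth fixed in advance. Because the depth was chosen by this share, 20% is not its chance level. The fragment estimate covers counting error only, and replicates are separate mice by the labels. The scripts were tested on simulated data. The members and lists were chosen with earlier results of these data known. Every member is named with its values. The pairs of members set as ratios were picked by hand with those results known, and not by a rule. Of the other lists, every gene past the threshold and those with the 2 smallest p are named. Markers of other cells are given as levels. Cspg4, Cnn1, Des, Krt5 and the markers named as not overlapping between genotypes were chosen after their values were seen. Alternatives were another pseudocount (0.1), other scalings, a filter on mean FPKM, no trend, array weights and each library left out.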

Additional observations from a re-analysis of the deposited data

How the results depend on the processing

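Between 10 and 15 of the 42 members passed with a pseudocount of 0.1, without quantile normalization, with median scaling, with a mean FPKM of at least 1 or with array weights, beside 13. Over all genes, those fits called between 536 and 653, beside 573. Without the mean-variance trend 8 members passed, 6 of them lower, in a fit that called 421 of all genes, 257 of them lower. With the surface members held equal 7 passed, 5 higher and 2 lower, but this scaling adds the same amount to every gene (the median of all genes goes from −0.01 to 0.27), so which members turn positive follows from their main values: Icam2 (0.14), Clec14a (0.11), Mmrn2 (0.081), Vwf (0.10), Tie1 (0.03), Ptprb (0.12), Erg (0.18), Fli1 (0.20), Cav1 (0.15), Cav2 (0.11), Nos3 (0.21), Vegfb (0.27) and Angpt1 (0.17). Leaving out 1 library in turn left 4 to 13 members past the threshold, 1 to 4 higher and 3 to 10 lower; the fits have fewer samples. Only Cldn5, Kdr and Ets1 passed in all 6 of these fits. Nos3 ranged from −0.15 to 0.05, turning without Sample 6, and Hey1 from −0.047 to 0.27, turning without Sample 5. Over all genes, 40.7% of the calls were higher, and 56.3% (302 higher, 234 lower) without quantile normalization, which moved the median of all genes from −0.01 to 0.03; 7 members were then lower and 3 higher. Calls over all genes fell from 573 to as few as 188 when 1 library was left out, and rose to 1082 with the surface members held equal. No paired analysis was possible because the library names in the data carry none of the labels' replicate numbers. Genes near 1 FPKM, such as Edn1, rest on few fragments.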
